A study of Mus musculus with 12 samples.

Results

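Regulators of G-protein signalling (RGS proteins) were followed through 4 sorted subsets of mouse thymocytes. The 8 genes are Rgs1, Rgs2, Rgs3, Rgs10, Rgs14, Rgs16, Rgs18 and Rgs19, and they were read through the 18 probe sets whose only gene symbol in the platform annotation is one of these names, among 34945 probe sets with 1 symbol and 18193 genes. Rgs1, Rgs10 and Rgs14 had 1 probe set each, Rgs18 and Rgs19 had 2, Rgs16 had 3, and Rgs2 and Rgs3 had 4. No filter on low values was applied, so all 8 genes entered each test.

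The cells were C57BL/6 thymocytes, untreated and never cultured, from which total RNA was taken with Trizol straight after isolation. The 4 groups, of 3 Affymetrix arrays each, were purified by flow cytometry: DN cells were sorted as CD4-CD8a-TCRb-, DP cells as CD4+CD8a+, CD4SP cells as CD4+ and CD8a- with TCRb high (TCRbhi), and CD8SP cells as the reverse, CD8a+ and CD4-, also TCRbhi. The labels name no allele, age or sex. Thymocytes pass from the DN through the DP stage to one of the single-positive (SP) stages. Whether arrays of 1 group stand for different mice is not in the labels, and the p-values cover no more than the spread among these 12 arrays, which may be technical, and the number of arrays limits the precision.

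An RGS protein binds an active G-protein alpha subunit and speeds up its hydrolysis of GTP, which ends the signal of the receptor that had switched it on. Chemokine and sphingosine-1-phosphate receptors signal through Gi proteins, and in the thymus they guide progenitors inward, selected cells from cortex to medulla, and mature cells out. RGS proteins are grouped by their RGS domain: the small R4 proteins (here Rgs1, Rgs2, Rgs3, Rgs16 and Rgs18) act on Gi or Gq subunits, the R12 proteins (Rgs10 and Rgs14) mainly on Gi, and the RZ protein Rgs19 on Gi and Gz. In the RefSeq gene order of GRCm38.p6, Rgs2, Rgs13, Rgs1, Rgs21 and Rgs18 follow one another on chromosome 1, and Rgs16 lies beside Rgs8 on the same chromosome. Rgs3 lies on chromosome 4, Rgs10 on chromosome 7, Rgs14 on chromosome 13 and Rgs19 on chromosome 2.

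The stretch of 250 bases before the RefSeq start is shown for 3 genes, because they stand for 3 different patterns below: Rgs2 was low in CD8SP, Rgs10 was graded between the SP subsets, and Rgs16 was high in both. The sequences are from RefSeq (GRCm38.p6), read along the gene's strand, at chr1:144004150-144004399 (minus strand) for Rgs2, chr7:128418173-128418422 (minus strand) for Rgs10 and chr1:153740103-153740352 (plus strand) for Rgs16. Capitals mark CRE half-sites (CGTCA or TGACG on the strand shown) and GC boxes (GGGCGG or CCGCCC), and the longer run of capitals in Rgs16 is a pair of overlapping GC boxes.
Rgs2: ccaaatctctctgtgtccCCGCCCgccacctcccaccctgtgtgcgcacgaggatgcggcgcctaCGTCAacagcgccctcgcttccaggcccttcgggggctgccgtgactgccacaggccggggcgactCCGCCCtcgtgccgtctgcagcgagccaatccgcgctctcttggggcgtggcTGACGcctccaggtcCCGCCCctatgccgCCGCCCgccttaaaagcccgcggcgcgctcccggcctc
Rgs10: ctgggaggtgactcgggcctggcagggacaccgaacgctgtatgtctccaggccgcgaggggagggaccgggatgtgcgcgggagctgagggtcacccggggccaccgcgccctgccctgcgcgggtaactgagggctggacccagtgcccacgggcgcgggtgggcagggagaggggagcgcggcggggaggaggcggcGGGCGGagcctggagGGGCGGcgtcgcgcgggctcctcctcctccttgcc
Rgs16: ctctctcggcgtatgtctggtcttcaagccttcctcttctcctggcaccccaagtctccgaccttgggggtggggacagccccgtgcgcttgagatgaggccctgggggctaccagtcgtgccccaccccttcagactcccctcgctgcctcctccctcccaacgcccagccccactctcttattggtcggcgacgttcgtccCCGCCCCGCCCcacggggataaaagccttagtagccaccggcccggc
The Rgs2 window held 2 CRE half-sites, whose first bases lie at -185 and -67 from the start, and 4 GC boxes. The windows of Rgs10 and Rgs16 held 2 GC boxes each and no CRE half-site. EGR sites (GCGNGGGCG), E-boxes (CANNTG) and NFAT cores (GGAAA) were also searched for on either strand and are not marked. Of these, the 3 windows held only 1 EGR site, at -176 in Rgs2, a motif found in 4.7% of all windows. Among all 32851 RefSeq windows of this length, 17.8% held a CRE half-site and 32.7% a GC box on either strand. The 3 windows are rich in G and C, at 72.4% for Rgs2, 76.4% for Rgs10 and 66.4% for Rgs16. Such a match is a run of letters and was not measured as a binding site here. RefSeq windows were matched for 5 of the 8 genes (Rgs2, Rgs3, Rgs10, Rgs16 and Rgs19), while Rgs1, Rgs14 and Rgs18 are named only.

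Values are on a log scale, read as log2, and count from the DP average of each probe set. DP therefore lies at 0 for every gene, and neither absolute levels nor a gene's level against another gene's can be given. Differences are given in log2 units ± the standard error (SE) of a limma fit over all 12 arrays, with p-values adjusted over all 18193 genes, with 0.05 as the threshold of a call. In bulk RNA of a sorted subset, fewer cells that express a gene and less RNA per cell cannot be told apart.

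The sort genes followed the labels in their means: Cd4 averaged -5.22 in DN, -0.64 in CD4SP and -8.90 in CD8SP, and Cd8a averaged -3.72 in DN, -6.53 in CD4SP and -0.33 in CD8SP. Among the DN arrays, replicate 1 lay nearest to DP for both genes. On DN replicates 1, 2 and 3, Cd4 was at -3.88, -6.49 and -5.29, and Cd8a at -2.63, -4.59 and -3.94. Genes of other blood cells were high in DN: a list of 8 measured neutrophil genes averaged -0.26 to 0.25 on the DP arrays, against 4.09 to 6.11 on the DN arrays. CD8SP replicate 1 and DN replicate 1 had the lowest array weights in limma, 0.276 and 0.527. DN replicate 1 was the lowest DN array for 6 of the 8 RGS genes (all but Rgs10 and Rgs14), and CD8SP replicate 1 was the lowest CD8SP array for 7 of the 8 (all but Rgs18).

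Each of the 8 RGS genes differed among the 4 subsets by limma's moderated F test, which called 56.7% of all genes. The 8 were chosen with earlier results of these data known, so this count does not speak for RGS genes at large. At the level of single probe sets, 17 of the 18 were called, where 57.4% of all probe sets were. The most common pattern was a low value in DP and a high value in both SP subsets, seen in Rgs1, Rgs3, Rgs10, Rgs16 and Rgs19. Rgs18 was high in DN alone, Rgs14 was low in DN, and Rgs2 was low in CD8SP.

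**Figure D1:**
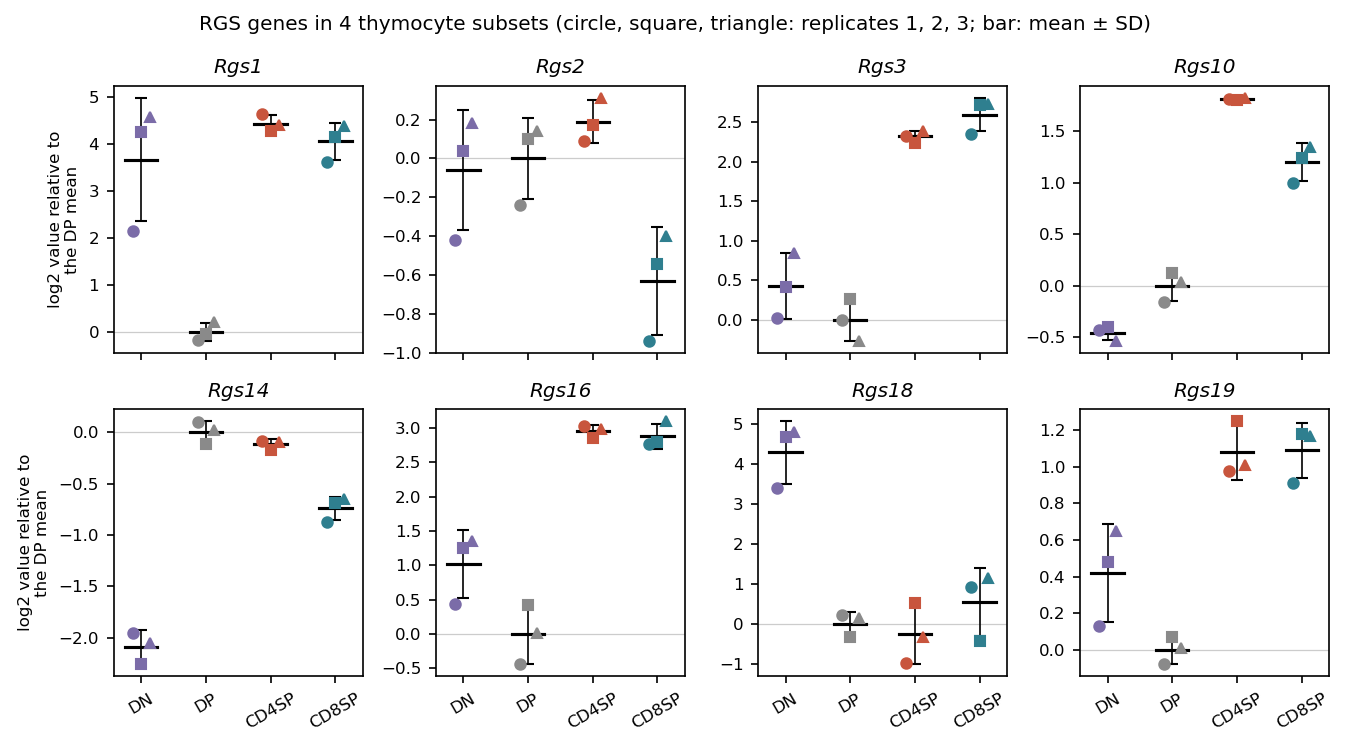
Log2 values of the 8 RGS genes relative to the DP mean (y axis, a separate scale per panel) on each of the 12 arrays, by subset (x axis), with circle, square and triangle for replicates 1, 2 and 3 and bars for the group mean ± SD (n = 3). Rgs1, Rgs3, Rgs10, Rgs16 and Rgs19 are higher on each SP array than on each DP array, Rgs18 is high on the DN arrays only, and Rgs14 is lowest on them.

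Rgs1, an R4 protein that limits the response of lymphocytes to chemokines, showed the largest rise in the SP subsets of the 8 genes. Its values were 2.16, 4.26 and 4.58 on the DN arrays, -0.17, -0.05 and 0.22 on the DP arrays, 4.64, 4.28 and 4.41 on the CD4SP arrays, and 3.63, 4.15 and 4.39 on the CD8SP arrays. Each DN, CD4SP and CD8SP array lay above all DP arrays, and DN replicate 1 stood below the other DN arrays. The difference CD4SP minus DP was 4.44 ± 0.50, a 21.8-fold difference (adjusted p = 4.71e-05), and CD8SP minus DP was 4.06 ± 0.50, or 16.7-fold (adjusted p = 7.81e-05). DP minus DN was -3.67 ± 0.50, so Rgs1 was 12.7-fold lower in DP (adjusted p = 0.000185). Without DN replicate 1 that difference was -4.42 (adjusted p = 5.81e-07). In order of their means, CD4SP (4.44), CD8SP (4.06) and DN (3.67) overlapped, and no difference among these 3 subsets was called (adjusted p = 0.236 to 0.688).

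Rgs16, an R4 protein that is induced in activated lymphocytes and limits T cell migration towards chemokines, was higher in both SP subsets. Its values were 0.44, 1.26 and 1.36 in DN, -0.44, 0.42 and 0.02 in DP, 3.03, 2.86 and 2.98 in CD4SP, and 2.77, 2.79 and 3.10 in CD8SP. The SP arrays lay above all DN arrays, and the DN arrays above all DP arrays, if narrowly so for DN replicate 1. Rgs16 rose in CD4SP by 2.96 ± 0.25 over DP (7.78-fold, adjusted p = 6.32e-06) and in CD8SP by 2.88 ± 0.25 (7.38-fold, adjusted p = 6.85e-06). CD4SP and CD8SP overlapped (0.07 ± 0.25, adjusted p = 0.892). DP minus DN was -1.02 ± 0.25 (adjusted p = 0.00858), and the probe sets were not alike in this: 1426037_a_at gave -1.63 ± 0.35 and 1455265_a_at gave -1.17 ± 0.40, both called, but 1451452_a_at gave -0.26 ± 0.26 (adjusted p = 0.485). The last probe set also gave the smaller SP differences, 1.68 for CD4SP minus DP and 1.75 for CD8SP minus DP, still called.

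Rgs3, an R4 protein with several isoforms that acts on Gi and Gq subunits, was likewise high in both SP subsets. Its values were 0.02, 0.41 and 0.85 in DN, 0.00, 0.27 and -0.27 in DP, 2.32, 2.24 and 2.39 in CD4SP, and 2.35, 2.71 and 2.72 in CD8SP. All SP arrays lay above all DN and DP arrays, while DN and DP overlapped. CD4SP minus DP was 2.32 ± 0.20 (4.99-fold, adjusted p = 7.33e-06) and CD8SP minus DP 2.59 ± 0.20 (6.03-fold, adjusted p = 2.94e-06), with CD4SP minus CD8SP at -0.28 ± 0.20 (adjusted p = 0.435). The 4 Rgs3 probe sets moved together, with Pearson correlations of 0.90 to 0.99 over the 12 arrays. DP minus DN was -0.43 ± 0.20 and was not called (adjusted p = 0.127), although it was called without DN replicate 1 (-0.63, adjusted p = 0.0246) and in the 2 probe sets 1425296_a_at (-0.65 ± 0.16, adjusted p = 0.00863) and 1425701_a_at (-0.61 ± 0.15, adjusted p = 0.0097).

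Rgs19, also known as GAIP, carries a cysteine string that anchors it to membranes and acts on Gi-class subunits. Its values were 0.13, 0.48 and 0.65 in DN, -0.08, 0.07 and 0.01 in DP, 0.98, 1.25 and 1.01 in CD4SP, and 0.91, 1.18 and 1.17 in CD8SP. In these means of 2 probe sets, the 4 subsets formed 3 levels with no overlap between them: DP lowest, DN next, and the SP subsets together on top. In 1434940_x_at alone, DN replicate 1 (0.00) lay within the DP range (-0.03 to 0.05), and DP minus DN was not called (-0.35 ± 0.18, adjusted p = 0.155). In 1417786_a_at it was called (-0.50 ± 0.13, adjusted p = 0.0118). It rose in CD4SP by 1.08 ± 0.14 and in CD8SP by 1.09 ± 0.14 over DP, 2.12-fold in both (adjusted p = 0.000116 in CD4SP and 9.65e-05 in CD8SP). DP minus DN was -0.42 ± 0.14 (adjusted p = 0.0336), and this call was lost when any one of DN replicates 2 and 3 or DP replicates 1, 2 and 3 was left out (adjusted p = 0.0548 to 0.124).

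Rgs10, a small R12 protein that consists of little more than its RGS domain, was graded over all 4 subsets. Its single probe set read -0.43, -0.40 and -0.54 in DN, -0.16, 0.12 and 0.04 in DP, 1.81, 1.80 and 1.82 in CD4SP, and 1.0, 1.24 and 1.35 in CD8SP. No 2 subsets overlapped, and the order was DN, DP, CD8SP and CD4SP from low to high. Rgs10 rose in CD4SP by 1.81 ± 0.11 (3.50-fold, adjusted p = 3.72e-07) and in CD8SP by 1.2 ± 0.11 (2.30-fold, adjusted p = 6.75e-06) over DP. It was also higher in DP than in DN, by 0.46 ± 0.11 (adjusted p = 0.00577). The difference CD4SP minus CD8SP was 0.61 ± 0.11, a 1.52-fold difference (adjusted p = 0.00386).

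Rgs14, the larger R12 protein, has a GoLoco motif that binds inactive Gi subunits and Ras-binding domains beside its RGS domain. It read -1.95, -2.26 and -2.05 in DN, 0.10, -0.11 and 0.02 in DP, -0.08, -0.17 and -0.09 in CD4SP, and -0.87, -0.69 and -0.65 in CD8SP. DN lay far below all other arrays, CD8SP lay between, and DP and CD4SP overlapped at the top. DP minus DN was 2.09 ± 0.10, a 4.25-fold difference (adjusted p = 1.58e-07). Rgs14 fell in CD8SP by 0.74 on the log2 scale relative to DP (SE 0.10, adjusted p = 0.00018), whereas CD4SP minus DP was -0.11 ± 0.10 (adjusted p = 0.444). The SP subsets differed by 0.63 ± 0.10 (CD4SP minus CD8SP, 1.54-fold, adjusted p = 0.00283).

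Rgs2, an R4 protein with a preference for Gq subunits, had the lowest moderated F of the 8 genes (7.56). Its difference between CD4SP and CD8SP was nevertheless the largest of those called. Its values were -0.42, 0.04 and 0.18 in DN, -0.24, 0.10 and 0.14 in DP, 0.09, 0.17 and 0.31 in CD4SP, and -0.94, -0.54 and -0.40 in CD8SP. The CD8SP arrays lay below all DP and CD4SP arrays, DN replicate 1 reached into the CD8SP range, and DN, DP and CD4SP overlapped. CD4SP minus CD8SP was 0.82 ± 0.18 (1.77-fold, adjusted p = 0.014) and CD8SP minus DP was -0.63 ± 0.18 (adjusted p = 0.0182). In 3 of its 4 probe sets CD4SP minus CD8SP was 0.88 to 1.28 and called, while 1443250_at spanned only 0.35 over all arrays and gave 0.02 ± 0.10 (adjusted p = 0.93). Several Rgs2 calls were lost when a single array was left out, with differences of similar size. CD8SP minus DP was not called without DP replicate 2, DP replicate 3 or CD8SP replicate 1 (-0.58, -0.56 and -0.47, adjusted p = 0.0607, 0.0666 and 0.0647). Nor was CD4SP minus CD8SP called without CD4SP replicate 3 (0.76, adjusted p = 0.0581).

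Rgs18, an R4 protein known from megakaryocytes, platelets and blood progenitors, was high in DN. Its values were 3.38, 4.66 and 4.80 in DN, 0.21, -0.34 and 0.13 in DP, -0.99, 0.51 and -0.34 in CD4SP, and 0.91, -0.44 and 1.13 in CD8SP. The DN arrays stood above all 9 other arrays, among which DP, CD4SP and CD8SP overlapped. DP minus DN was -4.28 ± 0.50, a 19.4-fold lower value in DP (adjusted p = 6.65e-05), and CD4SP minus DN was -4.55 ± 0.50 (23.5-fold lower, adjusted p = 3.07e-05). The 2 probe sets gave the same direction with different sizes, -5.84 ± 0.84 in 1420398_at and -2.71 ± 0.29 in 1449856_at for DP minus DN. CD8SP minus DN was -3.74 ± 0.50 (adjusted p = 0.000165), and -4.38 when DN replicate 1 and CD8SP replicate 1 were both left out.

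**Figure D2:**
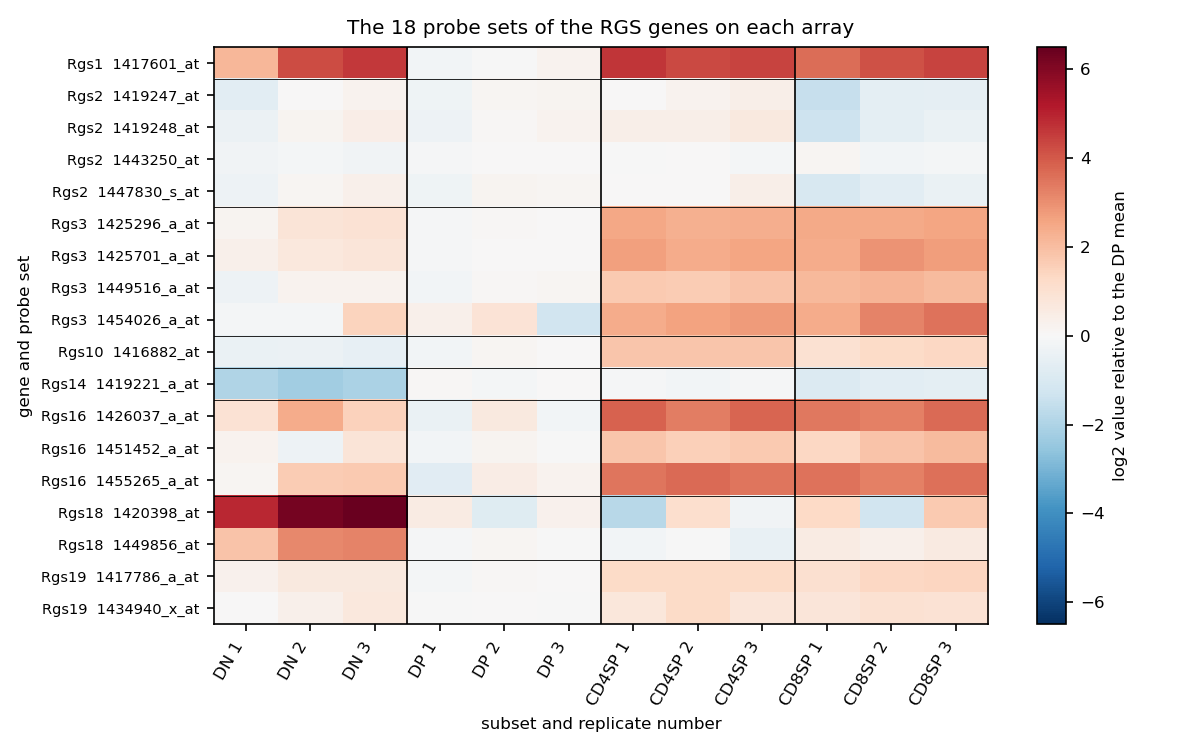
Log2 values relative to the DP mean (colour, red above and blue below) of the 18 probe sets of the 8 RGS genes (rows) on the 12 arrays (columns, by subset and replicate). In Rgs2, 1443250_at stays near 0 on each array, in Rgs16, 1451452_a_at lies below the other probe sets on the SP arrays, and the Rgs18 probe set 1420398_at reaches 6.40 on DN replicate 3.

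Markers of several other cell types were high in the DN gate, and their part in the RGS values was not tested. Rgs1, Rgs16, Rgs18 and Rgs19 were higher in DN than in DP, Rgs10 and Rgs14 were lower, and Rgs2 and Rgs3 were not called. Of all genes 18.8% fell in DP relative to DN. The 8 neutrophil genes all fell in DP relative to DN, led by Camp (mean 8.60 in DN) and S100a9 (7.61 in DN). B cell genes averaged -0.06 to 0.04 on the DP arrays, against 0.40, 2.23 and 1.96 on DN replicates 1, 2 and 3. Of these 8 genes, 3 fell in DP relative to DN, with Ms4a1 (CD20) at 4.96 and Cd79a at 3.04 in DN but Pax5 at -0.17. NK and innate lymphoid genes averaged 1.24, 2.38 and 2.54 on the DN arrays (6 of 8 fell in DP relative to DN), and myeloid and dendritic genes 0.96, 1.75 and 1.99 (5 of 14). The 4 measured γδ T cell genes averaged 2.35, 2.88 and 2.92 in DN, and all 4 fell in DP. In each of these lists DN replicate 1 was the lowest DN array. It was also the lowest for Rgs1, Rgs2, Rgs3, Rgs16, Rgs18 and Rgs19, of which Rgs2 and Rgs3 were not called. The 8 megakaryocyte and platelet genes averaged -0.07 to 0.03 in DP, against -0.04, -0.14 and 0.01 on the DN arrays. The 1 of these 8 that fell in DP was Gp6, at 0.62 in DN, while Pf4 was at 0.12 and Ppbp at -0.48. As values count from DP, a value near 0 does not show that a gene is absent.

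In the SP subsets, the neutrophil list averaged -0.03 to 0.18 in CD4SP and 0.05 to 0.41 in CD8SP, against -0.26 to 0.25 in DP, and the myeloid list -0.09 to 0.38 over the 6 SP arrays. The NK list averaged 0.65 to 0.86 in CD4SP and 1.98 to 2.33 in CD8SP. Of its 8 genes 3 rose over DP in each SP subset and 1 fell in CD8SP. Over all genes 16.4% rose in CD4SP, and 18.2% rose and 20.9% fell in CD8SP. In CD8SP Nkg7 was at 7.52 and Klrd1 at 5.90, against -0.09 for Tyrobp and -1.33 for Gata3. Regulatory T cell genes averaged 1.59 to 1.72 in CD4SP and 0.91 to 1.02 in CD8SP, with Foxp3, their defining factor, at 0.49 in CD4SP and 0.16 in CD8SP. Genes known to respond to cell dissociation and heat averaged 0.28 to 0.81 in CD4SP and 0.14 to 0.37 in CD8SP, against -0.05 to 0.08 in DP. Of these 12 genes 5 rose and 1 fell in CD4SP, where 16.2% of all genes fell, and 3 rose and 2 fell in CD8SP. Ier2 rose in both (2.21 in CD4SP, 2.01 in CD8SP), and Jun fell in both (-1.44 in CD4SP, -1.63 in CD8SP). The heat shock genes Hsp90aa1 (-0.44) and Dnajb1 (-0.66) were not called in CD4SP. The part of these lists in the RGS values was not tested.

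**Figure D3:**
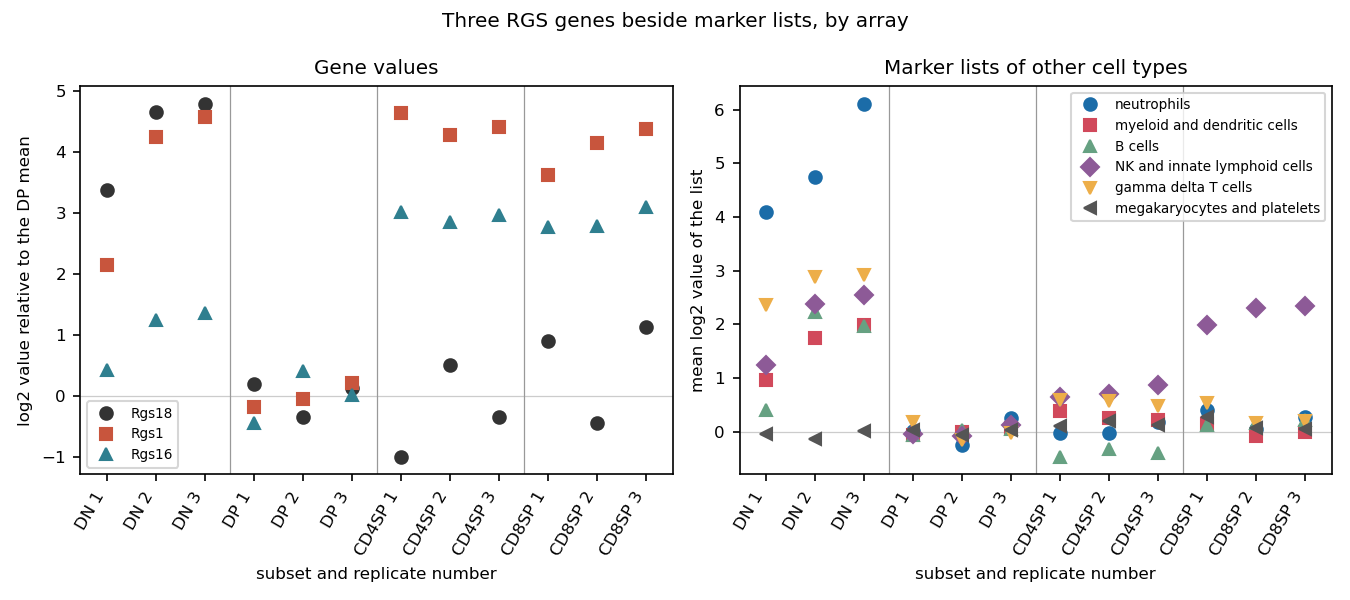
Left, log2 values relative to the DP mean of Rgs18, Rgs1 and Rgs16 on each of the 12 arrays; right, mean log2 values of 6 marker lists of other cell types on the same arrays. The lists of neutrophils, γδ T cells, NK cells, myeloid cells and B cells are raised on the DN arrays, least on DN replicate 1, and the megakaryocyte and platelet list stays between -0.14 and 0.27 on all arrays.

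DP minus DN compares the DP subset with the coreceptor-negative gate. Markers of several other cell types were high in that gate. A change within thymocytes and a difference in cell mixture therefore cannot be told apart in this comparison. Of the 8 genes 2 rose in DP (Rgs10 and Rgs14), where 17.8% of all genes rose, and 4 fell (Rgs1, Rgs16, Rgs18 and Rgs19), where 18.8% of all genes fell. Rgs2 and Rgs3 were not called. The median difference over the 8 genes was -0.42, against 0.04 over all genes. Under quantile normalization between arrays the calls of Rgs10, Rgs16 and Rgs19 were lost (adjusted p = 0.133 to 0.492), and Rgs1 had -2.96 and Rgs18 -3.68, both still called.

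CD4SP minus DP and CD8SP minus DP compare each single-positive subset with the DP subset, and both use the same 3 DP arrays. In CD4SP, 5 of the 8 genes rose (Rgs1, Rgs3, Rgs10, Rgs16 and Rgs19) and 3 were not called, where 16.4% of all genes rose and 16.2% fell. In CD8SP the same 5 rose and 2 fell (Rgs2 and Rgs14), where 18.2% of all genes rose and 20.9% fell. The median over the 8 genes was 1.45 in CD4SP and 1.14 in CD8SP, against 0.04 and 0.00 over all genes. Quantile normalization gave smaller rises, with Rgs1 at 3.51 in CD4SP and 3.03 in CD8SP and Rgs16 at 2.16 in CD4SP and 2.13 in CD8SP, all called, and ended the Rgs2 call in CD8SP (adjusted p = 0.242).

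CD4SP minus CD8SP also tests whether the change from DP differed between the SP subsets. Rgs2, Rgs10 and Rgs14 were higher in CD4SP, 3 of the 8 genes, where 7.78% of all genes were higher and 4.91% were lower. The other 5 were not called. These 3 calls were small, from 0.61 to 0.82, beside the rises of Rgs1, Rgs3 and Rgs16 that were shared by both SP subsets. No call was made for those 3 genes between CD4SP and CD8SP (-0.28 to 0.38), with an SE of 0.50 for Rgs1. Under quantile normalization the calls of Rgs2, Rgs10 and Rgs14 were lost (adjusted p = 0.289 to 0.436).

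Against DN, which skips the DP stage, Rgs3, Rgs10, Rgs14, Rgs16 and Rgs19 were higher in CD4SP (22.6% of all genes rose) and Rgs18 was lower (21.0% fell). The same 5 were higher in CD8SP (18.7% of all genes rose), with Rgs2 and Rgs18 lower (22.3% fell). Rgs1 was not called in either comparison: CD4SP minus DN was 0.78 ± 0.50 and CD8SP minus DN 0.39 ± 0.50. The Rgs2 call in CD8SP minus DN (-0.56 ± 0.18, adjusted p = 0.0291) came with overlapping arrays and was lost without DN replicate 2, DN replicate 3 or CD8SP replicate 1 (adjusted p = 0.0888, 0.103 and 0.105). The medians were 1.33 for CD4SP and 1.01 for CD8SP, against 0.07 and 0.03 over all genes. Quantile normalization ended the calls of Rgs16 (adjusted p = 0.0683 in CD4SP and 0.0878 in CD8SP) and of Rgs2.

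**Figure D4:**
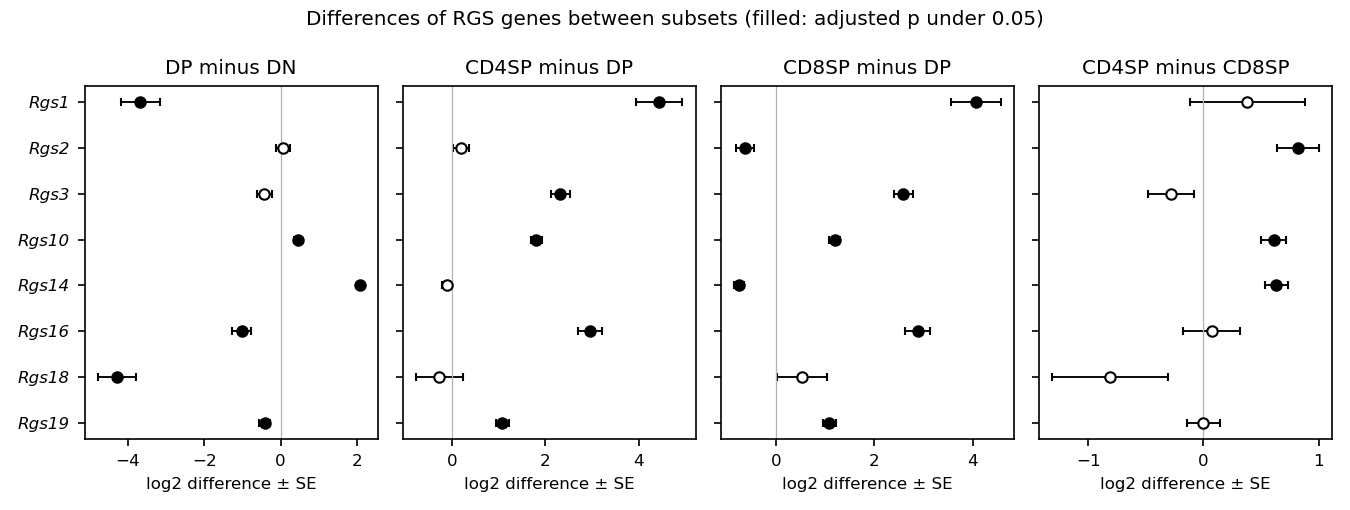
Log2 differences ± SE of the 8 RGS genes (rows) in 4 comparisons (panels, each with its own x axis), with filled points for an adjusted p under 0.05. Rgs1 and Rgs18 have the largest falls in DP relative to DN, 5 genes rise in both SP subsets, and 3 genes are higher in CD4SP than in CD8SP.

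Over the 12 arrays Rgs16 and Rgs19 had a Pearson correlation of 0.98, Rgs3 and Rgs16 of 0.97, and Rgs3 and Rgs19 of 0.96, while Rgs14 and Rgs18 ran opposite (-0.94). The points are 4 groups of 3 arrays, so these values mostly restate the group means. Among the 9616 genes searched, each called by the F test, the 3 most like Rgs1 were Cblb (0.986), Adgrg3 (0.986) and Abcc1 (0.985). Those most like Rgs16 were Parp9 (0.996), Trim30a (0.994) and Shisa5 (0.992), and those most like Rgs3 were Klhdc1 (0.992), Cnn2 (0.99) and B4galnt1 (0.989). Rgs19 was closest to Mndal (0.987), Ms4a6b (0.985) and Ubash3b (0.984), and Rgs10 to Igf2r (0.994), Usp53 (0.99) and Ikbke (0.99). For Rgs14 they were Anxa5 (0.995), Nsg2 (0.991) and Clk1 (0.986), and for Rgs18 Rab38 (0.98), Mst1r (0.972) and the immunoglobulin kappa segment Igkv9-120 (0.971). Rgs2 had the least close neighbours, Ap3m1 (0.957), Zfp157 (0.938) and Ipo11 (0.925).

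Of 13 further RGS genes, 11 were measured, and the F test called 5 of them, Rgs9, Rgs11, Rgs12, Rgs17 and Rgs20, against 56.7% of all genes. Rgs11, an R7 protein best known from the retina, rose by 0.81 ± 0.08 in CD4SP and 1.06 ± 0.08 in CD8SP over DP (adjusted p = 2.09e-05 in CD4SP and 2.62e-06 in CD8SP). Rgs20, an RZ relative of Rgs19, rose by 0.73 ± 0.12 in CD4SP and 0.85 ± 0.12 in CD8SP. Rgs12, the third R12 gene, had -0.92 ± 0.15 in CD4SP and -1.21 ± 0.15 in CD8SP and so fell where Rgs10 rose. Rgs13, which lies between Rgs2 and Rgs1 on chromosome 1, averaged 0.40 in DN, 0.49 in CD4SP and 0.33 in CD8SP and was not called (F test adjusted p = 0.955).

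**Figure D5:**
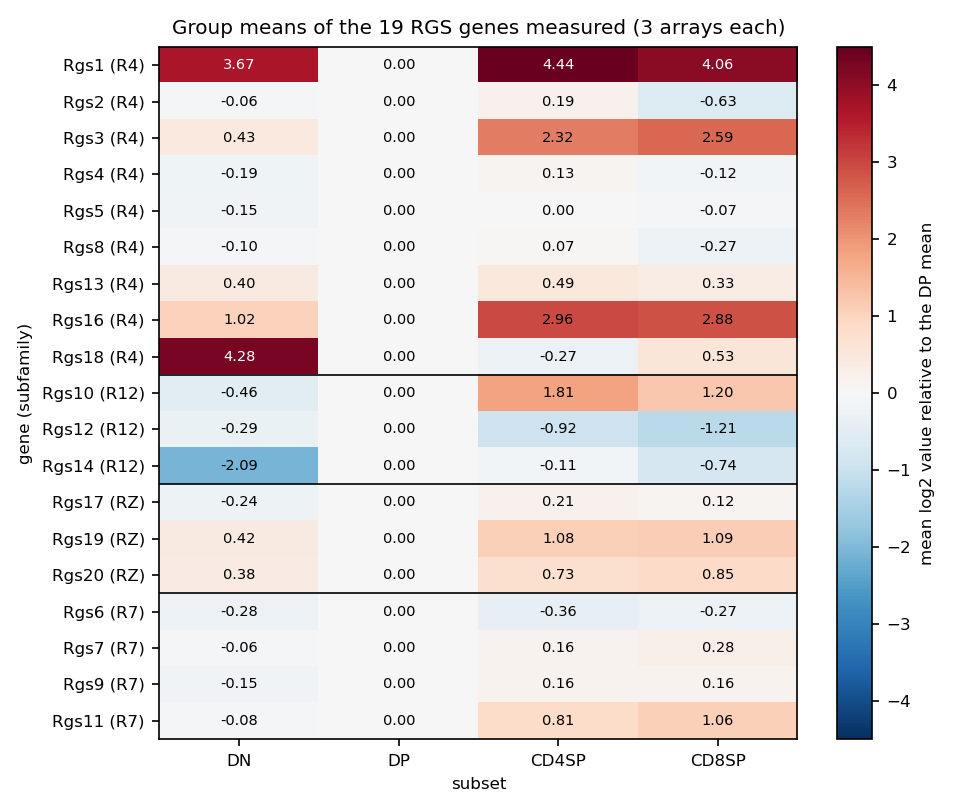
Mean log2 values relative to the DP mean (colour and printed number, 3 arrays per subset) of the 19 RGS genes measured (rows, by subfamily) in the 4 subsets (columns). The widest ranges are those of Rgs1 and Rgs18 in R4, and in R12 Rgs12 is below 0 in both SP subsets while Rgs10 is above.

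Around the RGS genes, lists of receptors, G-protein subunits, other regulators and effectors were read in the same fit. Of 12 measured chemokine and lipid receptors, 9 rose and 2 fell in CD4SP relative to DP, and 7 rose and 3 fell in CD8SP, where 16.4% of all genes rose and 16.2% fell in CD4SP and 18.2% rose and 20.9% fell in CD8SP. S1pr1, the receptor of thymic exit, rose by 4.88 ± 0.36 in CD4SP and 4.63 ± 0.36 in CD8SP, and Gpr183, an oxysterol receptor, by 3.57 ± 0.16 in CD4SP and 1.92 ± 0.16 in CD8SP. Ccr8 rose by 6.13 ± 0.35 in CD4SP and 3.8 ± 0.35 in CD8SP, and Ccr9, a receptor of cortical thymocytes, fell by 1.54 on the log2 scale in CD4SP and by 1.16 in CD8SP. The median of the list was 1.36 in CD4SP and 1.45 in CD8SP, against 0.04 and 0.00 over all genes.

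Among 13 alpha subunits, 2 fell and 11 were not called in CD4SP relative to DP, and 1 rose and 2 fell in CD8SP; over all genes 16.4% rose and 16.2% fell in CD4SP, and 18.2% rose and 20.9% fell in CD8SP. Gnai2, the main Gi subunit of lymphocytes, differed by 0.13 ± 0.10 in CD4SP (adjusted p = 0.376) and by 0.21 ± 0.10 in CD8SP (adjusted p = 0.121), but was higher in DP than in DN by 0.48 ± 0.10 (adjusted p = 0.003). Gnai3 fell by 0.30 on the log2 scale in CD4SP and by 0.52 in CD8SP. Gnaq, a subunit on which Rgs2 acts, was lower in DP than in DN (-0.75 ± 0.13, adjusted p = 0.000888). Of 16 measured beta and gamma subunits, 3 rose and 1 fell in CD4SP, and 1 rose and 4 fell in CD8SP, to be read against the same shares over all genes. Gng2 rose in both, by 3.48 ± 0.37 in CD4SP and 3.28 ± 0.37 in CD8SP, with DP minus DN at -1.52 ± 0.37 (adjusted p = 0.00777). Gng12 rose in CD4SP by 0.39 ± 0.10 and fell in CD8SP (-0.55 ± 0.10).

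Of 6 measured receptor kinases and arrestins, which also end receptor signals, 3 rose in both SP subsets and 3 were called in neither, beside 16.4% of all genes that rose in CD4SP and 18.2% in CD8SP. Arrb2 (beta-arrestin 2) rose by 1.90 ± 0.14 in CD4SP and 2.17 ± 0.14 in CD8SP, Grk6 by 0.96 ± 0.09 in CD4SP and 0.95 ± 0.09 in CD8SP, and Arrb1 by 0.57 ± 0.14 in CD4SP and 0.71 ± 0.14 in CD8SP. Of the 7 other modulators of alpha subunits, 2 fell and 5 were not called in each SP subset, beside 16.2% of all genes that fell in CD4SP and 20.9% in CD8SP. Those that fell were Gpsm1 and Gpsm2, which bind inactive Gi subunits: Gpsm1 was at -0.68 ± 0.18 in CD4SP and -0.49 ± 0.18 in CD8SP, and Gpsm2 at -1.14 ± 0.20 in CD4SP and -0.83 ± 0.20 in CD8SP. Of 3 RhoGEFs with an RGS-like domain, 2 rose in each SP subset, beside the same shares over all genes, and Arhgef11 was called in neither. Arhgef1 rose by 0.81 ± 0.10 in CD4SP and 0.27 ± 0.10 in CD8SP. Arhgef12 rose by 0.72 ± 0.10 in CD4SP and 0.68 ± 0.10 in CD8SP.

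Of the 19 effectors, 3 rose and 4 fell in CD4SP relative to DP, and 4 rose and 6 fell in CD8SP, where 16.4% of all genes rose and 16.2% fell in CD4SP and 18.2% rose and 20.9% fell in CD8SP. Adcy7, an adenylyl cyclase of blood cells, rose by 1.38 ± 0.15 in CD4SP and 1.71 ± 0.15 in CD8SP, and Adcy6, a related cyclase, was at -0.41 ± 0.13 in CD4SP and -0.83 ± 0.13 in CD8SP. Dock2, a Rac activator needed for lymphocyte migration, was higher in DP than in DN by 1.0 ± 0.13 (adjusted p = 0.000117), and Prex1, a Rac activator that responds to beta-gamma subunits, by 1.15 ± 0.13 (adjusted p = 4.08e-05). Neither was called in an SP subset relative to DP (0.01 to 0.19 for Dock2 and -0.28 to -0.24 for Prex1).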

How the data were processed

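The authors deposited log values, taken as log2, of 45101 probe sets on 12 arrays in 4 groups of 3 (groups and replicate numbers from the sample titles). The log base, the genome build and the steps between scan and table are not given in the sources used here. The submitters' processing notes list MAS5 with neither version nor role, and the design text names more than 1 chip version. Values run from -9.94 to 10.28. Each probe set has had the DP mean subtracted, as the values show (largest absolute DP mean 1.27e-06), so signal over background is lost and no filter on dim probe sets was possible. Array medians lay between -0.07 and 0.04, and no further normalization was applied.

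In the platform annotation 34945 probe sets had 1 symbol and were used, 932 had several and 9211 were unnamed. The 64 controls, most of them among the unnamed, were left out. Probe sets of 1 gene were averaged (18193 genes). Symbols of 34741 probe sets were found by gene ID in RefSeq's GRCm38.p6 table, and 0 changed. limma 3.58.1 in R 4.3.3 fitted 4 group means over all 12 arrays (eBayes without trend, two-sided p-values, Benjamini-Hochberg adjustment within each comparison over all genes, called under 0.05). A fold is 2 raised to the difference. Each probe set was fitted the same way. On simulated data with 18193 genes, DP minus DN recovered 28.4%, 71.6% and 93.9% of changes of 0.5, 1 and 2 (log2). Far fewer genes were changed in the simulation than were called in DP minus DN here. The adjustment was therefore stricter there, and these shares do not carry over to the data.

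The 8 RGS genes and the pathway and marker lists were chosen with earlier results of these data known. Named genes are the 8, for each of them the 3 genes of highest Pearson correlation among genes called by F, up to 4 called genes of lowest F p in each pathway list, and listed genes in counts of 5 or less. Marker genes were named after their values were seen. Replicates that share a number did not deviate together throughout: correlations of deviations from group means were 0.11 to 0.16 for number 1, -0.03 to 0.09 for number 2, 0.02 to 0.14 for number 3 and -0.16 to 0.08 for different numbers, so the numbers were not taken as pairs, although arrays numbered 1 deviated together and were also fitted with a factor of their own. The alternatives were other probe set summaries, variance models, array scalings and array weights, 2-group fits, a replicate block, a filter on range, and leaving out arrays.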

Additional observations from a re-analysis of the deposited data

Results flagged for a closer look

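For 3 of the 8 RGS genes the change from DP differed between the SP subsets, by limma's test of the difference itself. Of all genes 7.78% were called higher in CD4SP than in CD8SP and 4.91% lower. Rgs2 was higher in CD4SP than in CD8SP by 0.82 (adjusted p = 0.014), with values of 0.09 to 0.31 in CD4SP and -0.94 to -0.40 in CD8SP. Rgs14 was higher by 0.63 (adjusted p = 0.00283), with values of -0.17 to -0.08 in CD4SP and -0.87 to -0.65 in CD8SP. Rgs10 was higher by 0.61 (adjusted p = 0.00386), with values of 1.80 to 1.82 in CD4SP and 1.0 to 1.35 in CD8SP. CD8SP replicate 1, the array of lowest weight, held the lowest CD8SP value of all 3 genes, and without it Rgs10, Rgs14 and Rgs2 stayed called. The Rgs2 call was lost without CD4SP replicate 3 (adjusted p = 0.0581) and with its probe set of smallest spread (0.02), and all 3 calls were lost under quantile normalization (adjusted p = 0.289 to 0.436). In each case the CD4SP and CD8SP arrays did not overlap, which adds little for genes already called on the same arrays. The share of all genes without overlap was not counted.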

How the results depend on the processing

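Over 25 alternatives, 36 of 48 results for the 8 RGS genes (8 genes in 6 comparisons) had no call changed, and 12 had at least 1. One called difference changed sign: Rgs2 in CD8SP minus DN was 0.12 (adjusted p = 0.32) when only its probe set of smallest spread, the flat 1443250_at, was used. Quantile normalization left 5 of 5 called genes in CD4SP minus DP, 6 of 7 in CD8SP minus DP, 5 of 6 in CD4SP minus DN, 5 of 7 in CD8SP minus DN, 3 of 6 in DP minus DN, 0 of 3 in CD4SP minus CD8SP (limma gave Rgs2, Rgs10 and Rgs14 an unadjusted p under 0.05 and called 118 higher and 111 lower among all genes), 45 of 69 probe set calls, and 120 of 233 calls over the RGS and pathway genes together. By construction it gives all arrays 1 distribution, while the DP arrays, being centred on themselves, spread less over genes (SD 0.19 to 0.21) than the others (0.67 to 0.83). It also lowered CD4SP minus DP for Rgs1 to 3.51 and for Rgs16 to 2.16, both still called. With the replicate block, probe set calls numbered 72, and Rgs2 was called in CD4SP minus DN (adjusted p = 0.0458, against 0.281 without it); the replicate block changed no other call of the 8 genes. With arrays numbered 1 against the others as a factor, Rgs2 was likewise called in CD4SP minus DN (adjusted p = 0.0498). Leaving out 1 array at a time gave 5 to 7 called genes in DP minus DN, 5 in CD4SP minus DP, 6 to 7 in CD8SP minus DP and 2 to 3 in CD4SP minus CD8SP. Array weights called Rgs3 in DP minus DN (-0.51, adjusted p = 0.0417). Signal over background is not in the deposited values, so what it limits is not known.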
